A study of Mus musculus with 4 samples.

Results

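The circadian clock genes of gonadal white adipose tissue (WAT) were read together with Noct, the gene of nocturnin, in FSP27-deficient and wild-type mice. The group held 10 genes, Noct, Per1, Per2, Per3, Cry1, Cry2, Clock, Dbp, Tef and Nr1d1, of 12394 genes named on the arrays. They were selected with the difference between the genotypes already known, in particular the high level of Noct, so that their differences are given as a description, with no p-value, and nothing is read from how many passed a threshold. All 17 probe sets annotated to these genes alone were used, with 5 genes read by 1 probe set each and 5 by more. A further probe set that the annotation gives to Noct and other genes together was not used, so that the values of Noct rest on 1 probe set.

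In most cells of the body, fat cells included, the clock is a loop of transcription. CLOCK and its partner BMAL1 (the product of Arntl) switch on genes that carry an E-box, among them the Per and Cry genes, Nr1d1 and Dbp, and the PER and CRY proteins then shut CLOCK and BMAL1 down. REV-ERBα (Nr1d1) and the ROR receptors set the level of Arntl, whereas DBP and TEF carry the rhythm on through D-boxes. Noct, also known as Ccrn4l, is a rhythmic output gene whose product resembles the CCR4 deadenylases that shorten the tails of messenger RNAs, and it is known in fat for a part in adipocyte differentiation and lipid handling. The level of such genes depends on the hour at which a tissue is taken.

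FSP27, encoded by Cidec, is a lipid droplet protein of fat cells. Both groups were male C57BL/6J mice of 3 months, Fsp27 knockout in one group and wild-type in the other, and the knockout colony was kept on normal chow. RNA from gonadal WAT of 5 mice was pooled for each genotype, 45 μg in all, and each genotype was measured on 2 Affymetrix arrays. By the study's account the duplicates are 2 hybridizations of the same pooled sample, so that the spread between them is technical and holds none of the spread between mice. With 1 pool of each genotype, the genotype, the animals and the hour of collection, not given in the sources used here, cannot be told apart. In tissue RNA, fewer cells of a type and less RNA per cell also cannot be told apart.

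Signals are on the linear scale of the GCOS software, with arbitrary units, and were brought by the authors to a nearly equal trimmed mean of 500.2 on all 4 arrays. For each gene the brightest probe set was read, and fold changes were taken on log2(signal + 16), a scale that understates changes of dim genes. Of all named genes, 8523 had a mean signal of at least 100 and were tested. Cidec itself read 20491 and 18255 on the wild-type arrays and 8564 and 8949 on the FSP27-deficient arrays. It was thus lower but still well detected in the knockout (limma, log2 fold change −1.14, adjusted p = 5.7e-04). The sources used here do not say whether its probe set lies within the disrupted part.

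The arrays carried the markers of adipocytes, with 5 of 6 named and a summed signal of 166523 to 178879 in FSP27-deficient and 138032 to 158361 in wild-type WAT; 1 of them, Lep, was lower. Brown adipocyte markers summed to 16595 to 23268 against 731 to 1017, of which Cox8b alone gave 13491 and 19539 against 451 and 374. All 3 of the 5 that were bright enough to be tested were higher. Ucp1 and Ppara stayed below a mean signal of 100 over the 4 arrays. Ucp1 read 157 and 31.3 in FSP27-deficient against 18.9 and 12.9 in wild-type WAT, and Ppara read 140 and 132 against 5.25 and 13.9. Macrophage markers summed to 5587 to 6662 against 14426 to 16183, with 5 of 6 lower. Fibroblast markers summed to 21970 to 25849 against 40741 to 41535, with 4 of 5 lower. Mesothelial markers summed to 1006 to 1410 against 3149 to 3597, with 2 of 4 lower. Of 5 endothelial markers 1 was lower. Lymphocyte markers were all below the mean signal of 100. Skeletal muscle markers summed to 520 to 1024 against 774 to 868. Epididymis markers summed to 194 to 343 against 188 to 660, and no tested gene of these 2 lists was called. Among the epididymis markers, Lcn5 read 80.3 and 21.3 in FSP27-deficient against 14.1 and 431 in wild-type replicates 1 and 2. The ratio of 3′ to 5′ Actb probe sets ran from 2.47 to 2.99 over the 4 arrays. The part of this change in cell markers in the values below was not tested.

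Noct stood apart from the other 9 genes. Its signal was 411 and 388 on the wild-type arrays and 2759 and 1781 on the FSP27-deficient arrays. Both FSP27-deficient arrays lay far above both wild-type arrays, and the mean was 5.69-fold higher. The log2 fold change was 2.43 (SE 0.24), and 14 of the 8523 genes tested, Noct among them, had one at least as large. The wild-type duplicates differed little, with an SD of 16.2, while the FSP27-deficient duplicates had an SD of 692.

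**Figure D1:**
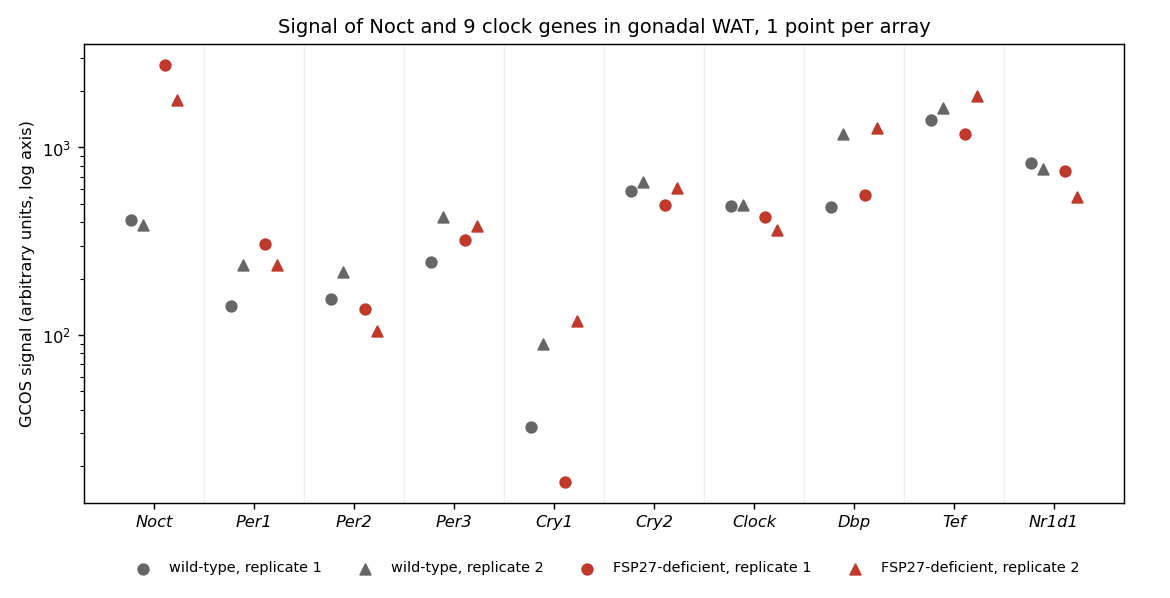
Signal of Noct and the 9 clock genes, from the brightest probe set of each, on a log axis in the arbitrary units of GCOS. Each point is 1 array, grey for wild-type and red for FSP27-deficient WAT, with circles for replicate 1 and triangles for replicate 2. For Noct both red points lie above both grey points, whereas for Dbp both triangles lie above both circles whatever the genotype.

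To show what lies in front of these genes, the 250 bases before the transcription start were taken from RefSeq's promoter table (GRCm38.p6), which held 13 such windows for 9 of the 10 genes, with none for Per2. They were searched on both strands for the E-box CACGTG, the E′-box CACGTT, the D-box TTATGTAA or TTACGTAA, the ROR element TAGGTCA, the cAMP response element TGACGTCA and its shorter form TGACG, which lies within the full element. Windows of Noct, Cry1 and Nr1d1 and a stretch of 75 bases before Per3 are shown, because Noct is the gene that differed most and the other 3 hold motifs of the clock. Capitals mark the matches, in the E-box, E′-box and TGACG letters or their reverse complement for Cry1 and Nr1d1 and in the D-box letters for Per3. Noct (chr3:51224197-51224446, plus strand, no gene annotated within):
Noct: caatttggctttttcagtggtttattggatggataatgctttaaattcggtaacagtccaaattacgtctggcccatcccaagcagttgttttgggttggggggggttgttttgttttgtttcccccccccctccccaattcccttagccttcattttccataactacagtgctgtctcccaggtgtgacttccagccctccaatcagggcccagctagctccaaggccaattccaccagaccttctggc
Cry1 (chr10:85185055-85185304, minus strand, no gene annotated within):
Cry1: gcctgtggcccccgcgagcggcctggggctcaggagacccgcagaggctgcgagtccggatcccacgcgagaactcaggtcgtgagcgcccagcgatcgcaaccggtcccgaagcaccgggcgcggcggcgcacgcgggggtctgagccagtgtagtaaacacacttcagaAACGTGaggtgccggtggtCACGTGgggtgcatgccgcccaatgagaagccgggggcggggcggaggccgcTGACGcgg
Nr1d1 (chr11:98775378-98775627, minus strand, within the span of Gm31862):
Nr1d1: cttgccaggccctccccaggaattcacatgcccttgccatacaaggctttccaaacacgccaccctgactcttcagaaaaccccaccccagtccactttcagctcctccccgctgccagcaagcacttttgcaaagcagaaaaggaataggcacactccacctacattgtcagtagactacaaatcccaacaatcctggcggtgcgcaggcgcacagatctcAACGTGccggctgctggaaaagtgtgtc
Per3 (chr4:151044806-151044880, minus strand, from base 215 to base 141 before the start):
Per3: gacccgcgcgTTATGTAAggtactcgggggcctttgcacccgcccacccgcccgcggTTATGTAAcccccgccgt

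The window before Noct held none of the 6 motifs. The Cry1 window held an E′-box at bases 79 to 74, an E-box at bases 60 to 55 and TGACG at bases 8 to 4 before the start. Nr1d1 held an E′-box at bases 28 to 23, and Per3 held 2 D-boxes, at bases 205 to 198 and 158 to 151. The Per3 window of 250 bases overlapped Gm38529 and, by 42 bases, Per3 itself, which the stretch shown does not reach. Among the other windows the E-box was found before Per1 and before both starts of Tef, and the E′-box before Cry2. An E-box was thus in 4 of 13 windows of these genes, against 6.02% of 32851 windows in the table, and an E′-box in 3, against 3.85%. The D-box was in 1 of 13, against 0.931%. No window of these genes held the ROR element or the full cAMP response element, which were in 2.23% and 1.55% of all windows. The shorter TGACG was in 4 of 13, before Cry1, Cry2 and both starts of Per1, against 17.8%. A match is a run of letters and not a shown binding site, and its absence says only that these letters are not in this window.

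Of the Per genes, which encode the PER repressors, none moved as Noct did. Per1 read 143 and 236 in wild-type and 304 and 235 in FSP27-deficient WAT. The genotypes overlapped, with a log2 fold change of 0.50 (SE 0.36). Per2 read 156 and 217 in wild-type and 137 and 105 in FSP27-deficient WAT, without overlap and with a log2 fold change of −0.56 (SE 0.46). The second probe set of Per2 was dimmer, at 111 and 43.6 in wild-type and 32.0 and 35.4 in FSP27-deficient WAT. It also lay lower, with a log2 fold change of −0.81 (SE 0.69) on its own. On 3 of the 4 arrays, however, it was below the lower quartile of signals. The probe sets of Per3 did not point one way. The brightest read 246 and 423 in wild-type and 321 and 381 in FSP27-deficient WAT (0.11, SE 0.30, on the log2 scale). Another read 85.3 and 133 against 198 and 204, a log2 fold change of 0.82, and the dimmest read 87.0 and 87.4 against 18.8 and 139, a log2 fold change of −0.49.

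The CRY repressors overlapped between the genotypes. Cry2 read 583 and 658 in wild-type and 491 and 612 in FSP27-deficient WAT, a log2 fold change of −0.17 (SE 0.23). Cry1 read 32.4 and 89.6 in wild-type and 16.5 and 119 in FSP27-deficient WAT. The duplicates of Cry1 thus differed more than the genotypes, and with a mean signal of 64.3 it was the one gene of the 10 that was too dim to be tested.

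Clock, the gene of the activator, read 489 and 492 in wild-type and 423 and 362 in FSP27-deficient WAT. Its second probe set read 307 and 388 against 264 and 262. Both probe sets were lower without overlap, with log2 fold changes of −0.31 (SE 0.24) and −0.37. Nr1d1, the gene of the repressor REV-ERBα, read 824 and 765 in wild-type and 750.0 and 546 in FSP27-deficient WAT. It too was lower without overlap, by a narrow gap, with a log2 fold change of −0.30 (SE 0.23).

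Dbp and Tef encode the activators that act through D-boxes. Dbp read 479 and 1179.9 on wild-type replicates 1 and 2 and 555 and 1276 on FSP27-deficient replicates 1 and 2. Its second probe set read 510 and 1054 against 507 and 1001. In both, replicate 2 was high and replicate 1 low in each genotype, and the genotypes overlapped (log2 fold changes of 0.16, SE 0.41, and −0.04). Tef read 1399 and 1628 in wild-type and 1174 and 1884 in FSP27-deficient WAT, a log2 fold change of −0.02 (SE 0.24). Its other probe sets, with wild-type signals of 201 and 164 and of 18.2 and 43.8, overlapped as well, with log2 fold changes of −0.02 and 0.12.

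**Figure D2:**
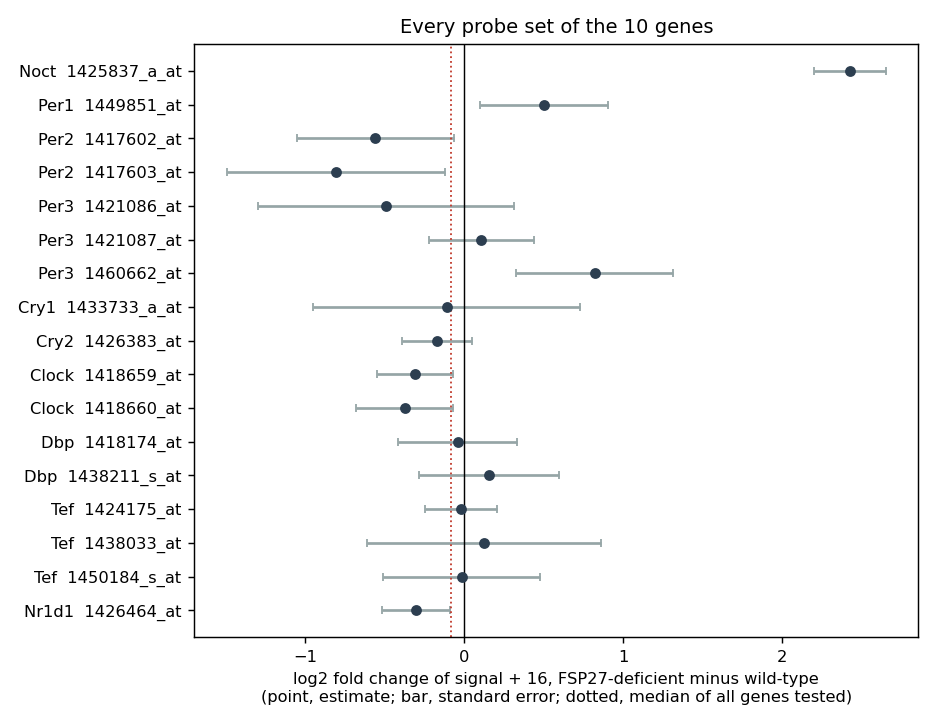
Log2 fold change of signal + 16, FSP27-deficient minus wild-type, for all 17 probe sets of the 10 genes, with bars for the standard error in a fit of all probe sets and a dotted line at −0.08, the median over the genes tested. Noct lies at 2.43 and the other 16 probe sets lie between −0.81 and 0.82.

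Read over the group, 9 of the 10 genes were tested and 1, Noct, was past the adjusted threshold of 0.05 as higher, where 5.78% of all genes tested were. None was past it as lower, where 6.51% were. The FSP27-deficient arrays were both above the wild-type pair for 1 of 9, against 22.7% of all genes, and both below it for 3 of 9 (Per2, Clock and Nr1d1), against 31.4%. As this contrast chose the genes, nothing is read from these counts. The 8 tested genes other than Noct had a median log2 fold change of −0.10, with a range from −0.56 to 0.50, and the median over all genes tested was −0.08. When the variance was not allowed to follow the mean signal, the number of genes past the threshold fell from 1048 to 1, and with the methods' t-test to 0. It was 408 without wild-type replicate 1 and 470.0 without wild-type replicate 2.

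The duplicate arrays of each genotype differed in Dbp more than the genotypes did. Replicate 2 was 2.30-fold above replicate 1 in FSP27-deficient and 2.46-fold in wild-type WAT, and the second probe set gave 1.98-fold and 2.07-fold. The brightest probe set of Nr1d2, the gene of the related repressor REV-ERBβ, behaved alike with 1.83-fold and 1.63-fold. Its dimmer probe set did not, with 0.735-fold in FSP27-deficient and 2.47-fold in wild-type WAT. Of all genes tested, 83 (0.974%) were at least 1.5-fold higher in replicate 2 in both genotypes, a limit set after these values were seen. In the opposite direction, 204 (2.39%) were at least 1.5-fold lower in replicate 2 in both genotypes. Of the 9 tested genes of the group only Dbp was among the 83, and of the 15 other clock genes tested only Nr1d2. Cry1, too dim to be tested, also read higher in replicate 2 of both genotypes, by 7.21-fold in FSP27-deficient and 2.77-fold in wild-type WAT.

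Several other genes of the loop were read in the same way. The log2 ratio of replicate 2 over replicate 1 in FSP27-deficient and wild-type WAT was 0.68 and 0.22 for Tef, and 0.24 and 0.74 for Per3. Bhlhe40, the gene of the repressor DEC1, gave 0.72 and 0.44. Arntl, the gene of BMAL1, fell in both, by 1.41 and 0.45 on the log2 scale. Nr1d1 was lower in replicate 2 of both as well, at −0.45 and −0.11, and so was Noct, at −0.63 and −0.08. Clock gave −0.22 and 0.01, and Cry2 gave 0.31 and 0.17. A dimmer probe set of Tef was 2.26-fold in FSP27-deficient and 0.82-fold in wild-type WAT. Per1 and Per2 were lower in replicate 2 of the FSP27-deficient and higher in replicate 2 of the wild-type arrays. Over all 8523 genes the gap between duplicates in one genotype had a correlation of 0.065 with that in the other, which is across genes of 4 arrays and not over independent replicates. The labels do not say what replicates 1 and 2 of the genotypes shared, and the cause of the gap in Dbp was not tested.

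**Figure D3:**
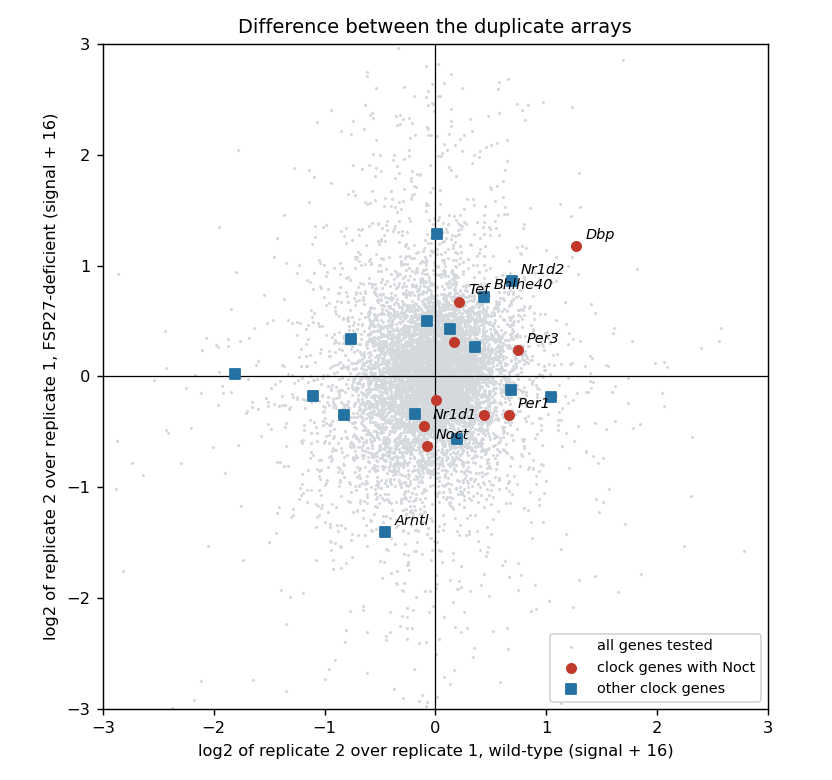
Log2 ratio of replicate 2 over replicate 1 (signal + 16) in wild-type arrays, on the horizontal axis, and in FSP27-deficient arrays, on the vertical axis. Grey points are the genes tested (15 lie outside the axes), red circles the group with Noct and blue squares the other clock genes. Dbp lies at 1.27 and 1.18 and Nr1d2 at 0.69 and 0.86, both high on both axes.

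Of the other genes of the clock 21 were in the list and 15 were tested. None of these was called in either direction by limma, where 5.78% of all genes tested were higher and 6.51% lower. The methods' t-test called 0 of all genes tested, so its lack of calls here decides nothing. An unadjusted p under 0.05 by limma was found for 2 of the 15, Bhlhe41 and Nfil3, beside 2158 of all 8523 genes tested. Without FSP27-deficient replicate 2, Csnk1e, a kinase gene, passed as lower. The median log2 fold change was 0.14. Npas2 and Rorb were below the mean signal of 100, and the others of the list were not analysed here. Arntl read 224 and 159 in wild-type and 420 and 148 in FSP27-deficient WAT. The single high array set its log2 fold change of 0.38 (SE 0.45, adjusted p = 0.65, limma), which became −0.32 without FSP27-deficient replicate 1 (adjusted p = 0.71, with 0.059 to 0.94 over all the alternatives). Nr1d2 read 901 and 1465 against 677 and 1241, and the replicates again differed more than the genotypes (log2 fold change −0.32, SE 0.30, adjusted p = 0.56, limma). Bhlhe40 read 362 and 497 against 433 and 723 (0.39, SE 0.29, adjusted p = 0.45, limma). Npas2, the gene of a protein that can stand in for CLOCK, read 107 and 8.83 against 64.9 and 64.1.

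Of the 15, 3 lay above the wild-type arrays without overlap, Rora, Bhlhe41 and Nfil3, where 22.7% of all genes tested did. Below them lay 2, Csnk1d and Timeless, where 31.4% did. These counts use the brightest probe set. Another probe set of Csnk1d, nearly as bright, lay higher without overlap (log2 fold change 0.58), and its remaining ones ran from −0.51 to −0.08. Further probe sets of Rora gave −0.02, with overlap, and 0.74, and the second of Timeless gave −0.87. Bhlhe41 and Nfil3, which encode the repressors DEC2 and E4BP4, were singled out after their values were seen. Bhlhe41 read 89.8 and 77.2 in wild-type and 271 and 210.2 in FSP27-deficient WAT, a log2 fold change of 1.36 (95% interval 0.34 to 2.37, adjusted p = 0.082, limma). Nfil3 read 101 and 17.5 against 191 and 195, and its log2 fold change of 1.74 had a 95% interval of 0.12 to 3.36 (adjusted p = 0.16, limma). Neither passed the threshold, and the wild-type duplicates of Nfil3 lay far apart.

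Noct was set beside the genes of the deadenylases and their partners, to see whether the family as a whole was higher. Of 16 tested genes none was past the threshold in either direction by limma, where 5.78% of all genes tested were higher and 6.51% lower. The methods' t-test, with 0 calls among all genes tested, could not decide this. An unadjusted p under 0.05 by limma was found for 3, Cnot6, Cnot2 and Btg2, beside 2158 of all 8523 genes tested. The 16 genes had a median log2 fold change of −0.27, and their values ran from −1.29 for Angel1 to 0.41 for Pde12. The 9 catalytic subunits and enzymes had a median of −0.37, and the 7 scaffolds or partners had one of −0.16. These values are of the brightest probe sets. The other probe sets of Cnot2 gave 0.07, −0.03 and 0.25, and the second of Btg2 gave −0.07. Those of Cnot6 gave −0.46, −0.23 and −1.62. Without FSP27-deficient replicate 1, Angel1 and Btg2 passed as lower, and without FSP27-deficient replicate 2 Pan2 did.

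Among genes known as outputs of the clock, 2 of 6 tested were higher and none lower, beside 5.78% and 6.51% of all genes tested, with a median log2 fold change of 0.27. Elovl3, a fatty acid elongase that is rhythmic in liver and abundant in brown fat, read 149 and 149.9 in wild-type and 2818 and 738 in FSP27-deficient WAT. The fold change was 3.14 on the log2 scale (SE 0.45, adjusted p = 9.4e-04, limma), and it was 2.19 without FSP27-deficient replicate 1 and 4.10 without FSP27-deficient replicate 2. Alas1, the first enzyme of haem synthesis, read 2432 and 2695 against 6426 and 6032 (log2 fold change 1.28, SE 0.17, adjusted p = 5.2e-04, limma). Brown adipocyte markers were higher in the same arrays, and their part in these values was not tested. Wee1, Nampt, Insig2 and Cdkn1a did not pass the threshold, and neither output was past it without the variance trend or with the methods' t-test.

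Noct and the Per genes can also be induced within hours by hormones, so genes of that kind were read. Of 16 tested, none was higher and 4 were lower, beside 5.78% and 6.51% of all genes tested, with a median log2 fold change of −0.24. When FSP27-deficient replicate 2 was left out, Sik1 passed as higher. Mt2, a metallothionein, read 2084 and 2965 in wild-type and 437 and 462 in FSP27-deficient WAT (log2 fold change −2.43, SE 0.22, adjusted p = 5.5e-05, limma). Mt1, its neighbour, read 5500.3 and 7074 against 1944 and 2699 (−1.44, SE 0.20, adjusted p = 8.8e-04, limma). Tsc22d3, the gene of the glucocorticoid-induced leucine zipper, read 2775 and 2371 against 1390.2 and 1194 (−0.98, SE 0.19, adjusted p = 0.0058, limma). Fos, an immediate early gene, read 411 and 325 against 120 and 179 (−1.23, SE 0.34, adjusted p = 0.033, limma).

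Of the 8 tested glucocorticoid targets 3 were thus lower, beside the same 6.51%, with a median log2 fold change of −0.77, and of the 8 genes induced by cAMP or as immediate early genes 1 was, with a median of 0.20. A second probe set of Tsc22d3 gave a log2 fold change of −1.01, whereas its dimmest went the other way, at 1.02. Without wild-type replicate 1 the log2 fold change of Tsc22d3 was −0.87 and not past the threshold. Over all the alternatives its adjusted p, by limma or the methods' t-test, ran from 3.9e-04 to 0.32. Fos lost its call without wild-type replicate 1, wild-type replicate 2 or FSP27-deficient replicate 1 (adjusted p = 0.34, 0.14 and 0.070), and also with quantile normalization (0.059) or no filter on low signals (0.11), with 0.012 to 0.34 over all the alternatives. Macrophage and fibroblast markers were lower in the same arrays, and their part in these values was not tested.

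**Figure D4:**
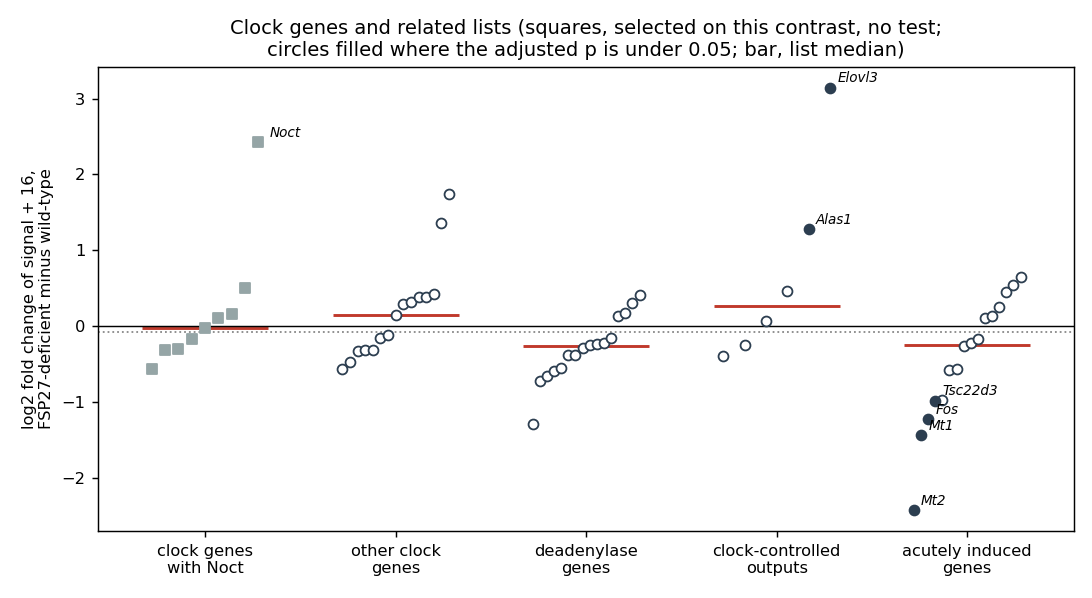
Log2 fold change of signal + 16, FSP27-deficient minus wild-type, for the tested genes of 5 lists, 1 point per gene, with a bar at the median of each list and a dotted line at −0.08, the median over the genes tested. Grey squares are the group with Noct, which was selected on this contrast, and circles are filled where the adjusted p of limma was under 0.05. Noct lies above all the other clock genes, and the filled circles are Elovl3 and Alas1 among the outputs and Mt2, Mt1, Fos and Tsc22d3 among the induced genes.

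The 5 genes whose pattern over the 4 arrays lay nearest to that of Noct, by the Euclidean distance of their centred log2 values, were Plin5, Cox7a1, Apoc2, Rimklb and Nabp1, at distances of 0.133, 0.300, 0.336, 0.369 and 0.391. Plin5, which encodes a lipid droplet protein of oxidative tissues, read 206 and 194 in wild-type and 1328 and 823 in FSP27-deficient WAT. Cox7a1, a subunit of cytochrome c oxidase in muscle and brown fat, read 118 and 111 against 847 and 700.3. Apoc2, the cofactor of lipoprotein lipase, read 125 and 95.6 against 756 and 412. All 5 genes shared with Noct a higher value in both FSP27-deficient arrays and, between these, in replicate 1. They were chosen for their likeness to Noct on these arrays, so nothing is read from this. Rimklb, with a mean of 18.1 in wild-type and 193 in FSP27-deficient WAT, was not past the threshold (adjusted p = 0.13, limma). Nabp1 read 746 and 784 against 3880 and 3442. None of the 5 was a clock gene, and likeness over 4 arrays of 2 genotypes is a description alone.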

How the data were processed

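RNA of gonadal WAT was hybridised to 4 Affymetrix arrays, 2 for FSP27-deficient and 2 for wild-type mice. The deposited values are signal intensities on a linear scale that the authors made with GCOS; its version was not given in the sources used here, and precision rests on the number of arrays. The scaling gives all arrays nearly the same trimmed mean, so that changes are relative to each array's total. The annotation of the platform gave 20393 of 22690 probe sets 1 symbol; the 691 with several and the 1606 without one were not used. The intensities were tested on log2(signal + 16) with limma 3.58.1 in R 4.3.3 (lmFit and eBayes with a trend), as FSP27-deficient minus wild-type. Benjamini-Hochberg adjustment ran over the 8523 genes whose mean signal was 100 or more. The brightest probe set stood for each gene. With 2 against 2 arrays an exact two-sided permutation test cannot go below p = 0.333, so none was run. The script was tested on simulated data.

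Members and lists were chosen with earlier results of these data known. Named genes were Cidec, the 10 members, Arntl, Npas2, Nr1d2 and Bhlhe40, up to 4 members of each other list with the largest change past the threshold, and the 5 genes nearest to Noct; any other gene was named after its values were seen. Alternatives were the pseudocount, the filter, quantile normalization, centring, the choice among probe sets, a fit without trend, the methods' t-test, a replicate block and leaving out each array. The labels number the duplicates in both genotypes but do not say that a number marks a shared batch. As the study describes no replicate block, the numbers were not used as pairs in the main fit. The deviations of equal numbers had a correlation of 0.065. Sequences are from RefSeq (GRCm38.p6). Protein identities were not analysed here.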

Additional observations from a re-analysis of the deposited data

How the results depend on the processing

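The arrays are duplicate hybridizations of 1 pool a genotype, so the spread between duplicates sets every standard error. Over the alternatives the log2 fold change of Noct ran from 2.11 to 2.74, while those of Dbp (−0.48 to 0.79), Tef (−0.36 to 0.32) and Per3 (−0.26 to 0.48) crossed 0 when an array was left out, as did that of Tef with quantile normalization, centring or averaged probe sets. An array left alone in its genotype was assumed to vary like the other pair. The number of genes called, 1048, was 1 with no trend and 0 with the methods' t-test, and leaving out an array gave 408 to 1377, with 408 without wild-type replicate 1 and 470.0 without wild-type replicate 2. The counts of the group with Noct (1, from which nothing is read), of the clock-controlled outputs (2) and of the acutely induced genes as lower (4) went to 0 with no trend and with the methods' t-test. With probe sets of a gene averaged, 2 of the acutely induced genes were lower, Mt1 (adjusted p = 0.076) and Tsc22d3 (0.32) being lost, and 1 of the other clock genes, Bhlhe41, was higher. Leaving out an array gave 0 to 1 other clock genes as lower (Csnk1e), 0 to 2 deadenylase genes as lower, 0 to 1 acutely induced genes as higher (Sik1) and 2 to 4 as lower. Arntl ran from −0.32 without FSP27-deficient replicate 1 to 1.09 without FSP27-deficient replicate 2, and Nr1d2 from −0.75 without FSP27-deficient replicate 2 to 0.11 without FSP27-deficient replicate 1, with 0.025 without wild-type replicate 2. The cause was not tested.

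With the replicate block 1466 genes were called, and Btg2, 1 of the deadenylase genes, passed as lower, as did 5 acutely induced genes, Zbtb16 with them. The other lists kept their counts under the block. Quantile normalization moved the median of all genes from −0.08 to −0.02 and centring moved it to −0.01. The gap between duplicates in Dbp was 1.15 and 1.29 with quantile normalization and 1.30 and 1.42 with centring (log2, FSP27-deficient and wild-type), and 1.38% and 2.22% of genes then met the limit of 1.5-fold; their use for this gap was chosen after seeing the data.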
